A study of Saccharomyces cerevisiae with 210 samples.

Results

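The 36 genes described here carry sulfur into budding yeast (Saccharomyces cerevisiae) cells and build cysteine, methionine and S-adenosylmethionine from it. They were chosen by name, as the enzymes of sulfate assimilation and methionine synthesis with their transporters and regulators. All 36 were on the array, of 5656 genes tested. SAM3 was named by 5 probe sets, of which the brightest on average was used, and the other 35 genes had 1 probe set each.

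Diploid BY4743 cells were grown as batch cultures in fermentors, in 6 mutants (glr1, gpx1, gpx2, grx1, grx2 and yap1) and in wild type (WT). In each genotype 3 cultures in mid-exponential growth received 0.19 mM of the oxidant CHP, read here as cumene hydroperoxide, and 3 Control cultures received none. Each of the 42 cultures was sampled at 0, 3, 6, 12 and 20 min, giving 210 arrays in 70 groups of 3. The sample notes place the 0 min sample after the addition of CHP, whereas the design text places it just before, and it is treated here as the sample before exposure. GLR1 encodes glutathione reductase, GPX1 and GPX2 encode peroxidases of the glutathione peroxidase family, GRX1 and GRX2 encode glutaredoxins, and YAP1 encodes the transcription factor that turns on many oxidant-defence genes. The labels name each mutant by its gene only and give no allele. Signal for the deleted gene was low in its own mutant in each case, the smallest gap being that of GPX1, at a mean of 4.13 on the log2 scale in gpx1 and 5.39 in WT. No marker of another cell type applies to these pure cultures. Of 13 haploid and mating genes, 0 passed the test at any time in WT, and of 10 sporulation genes NDT80 was higher by 0.41 at 20 min and SPS4 and SPO11 were lower by 0.69 and 0.54, when 16.7% of all genes were higher and 21.9% lower.

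Yeast takes up sulfate through 2 permeases, activates it with ATP and reduces it first to sulfite and then to sulfide. Sulfide is joined to an activated homoserine to give homocysteine, which is methylated to methionine or passed through cystathionine to cysteine, the precursor of glutathione. The genes are switched on by the activator Met4 with its DNA-binding partners, and the ubiquitin ligase subunit Met30 holds Met4 in check when sulfur amino acids are plentiful. Glutathione draws on this pathway for its cysteine, and thioredoxin feeds electrons into it as the donor of Met16.

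Values are log2 levels, so a difference of 1 is a change of 2-fold, and the response is the CHP mean minus the Control mean at the same time (3 cultures each). A gene is said to have risen or fallen where limma gave an adjusted p below 0.05 over all 5656 genes. In bulk RNA a change in the share of responding cells and a change in RNA per cell cannot be told apart. The array of the grx2 CHP culture 2 at 20 min correlated least with the rest (median correlation 0.785, the next lowest being 0.8683). Some results that rest on it are also given without it. The counts of genes higher and lower in grx2 at 20 min, and the shares of all genes beside them, are given with it only. Of the 28 single gene results called in grx2 that use this array, 12 did not pass without it. No comparison between the levels of different genes is made, because probe sets differ in brightness.

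In WT the number of genes called grew up to 12 min and was smaller at 20 min, as the map of all responses shows. At 3 min limma called 0 of the 36 genes, with 6 at an unadjusted p below 0.05. At that time 0.672% of all genes had risen and 0.106% had fallen. At 6 min 4 had risen and 0 had fallen, against 4.05% and 8.68% of all genes. At 12 min 15 had risen and 2 had fallen, against 10.7% and 19.5% of all genes. At 20 min 3 stood higher and 3 lower, against 16.7% and 21.9%. That count depended on the fit: without WT Control culture 3, 3 were higher and 7 lower, and with the WT arrays fitted alone 7 were higher and 5 lower. The median response of the 36 genes was 0.03, 0.17, 0.42 and -0.01 at 3, 6, 12 and 20 min, and that of all genes was -0.06, -0.12, -0.09 and -0.04. The 12 min count rests in part on a single culture: without WT CHP culture 1, 5 genes were higher and 2 lower. With each gene's difference between the arms at 0 min subtracted, a noisier estimate that uses 12 arrays in place of 6, 6 genes were higher at 12 min (SUL1, MET1, STR2, STR3, MMP1 and YCT1) and 0 lower.

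**Figure D1:**
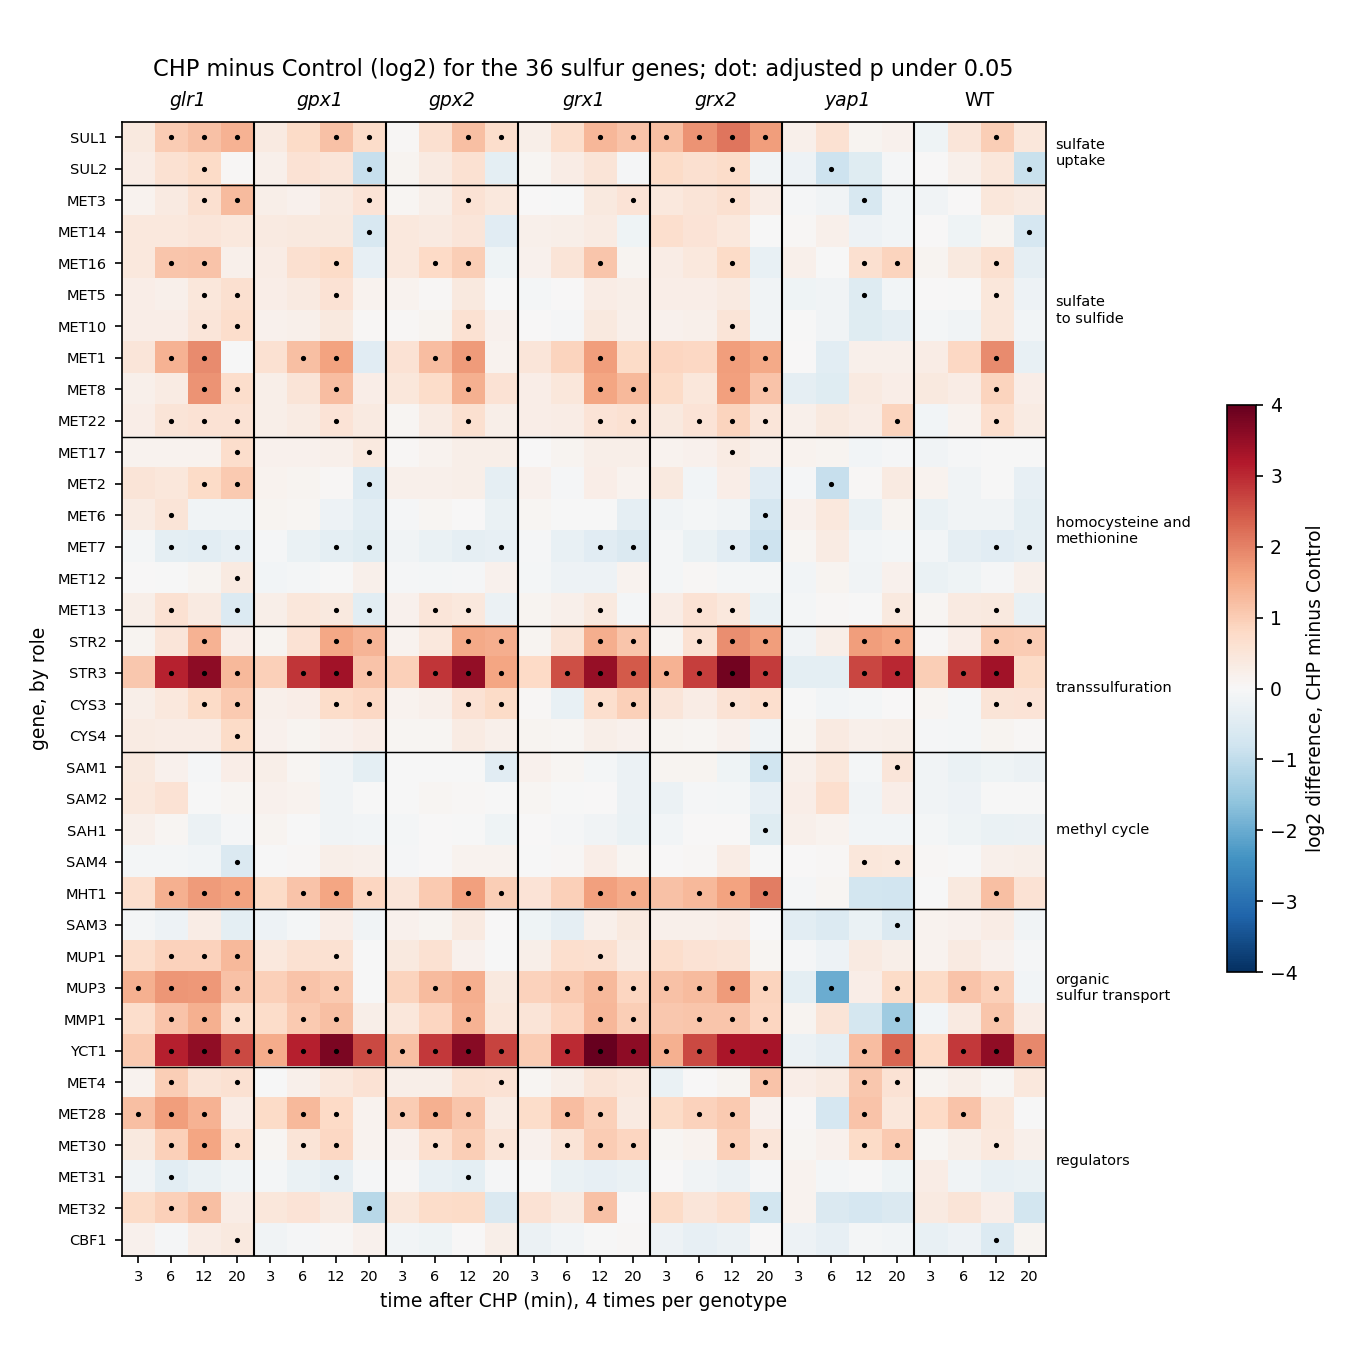
Log2 difference between CHP and Control cultures (colour scale from -4 to 4) for the 36 genes, in rows grouped by role, at 3, 6, 12 and 20 min in each genotype, in columns. A dot marks an adjusted p below 0.05 in limma, and STR3 and YCT1 form the darkest rows, with later colour in yap1 than in WT.

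The 2 genes with the largest responses in WT were YCT1 and STR3. YCT1 (YLL055W, chromosome XII) encodes a plasma-membrane cysteine transporter. Its level in the 3 CHP cultures was 6.22, 6.68 and 7.07 at 3 min, 8.36, 8.79 and 8.61 at 6 min, 9.44, 9.21 and 9.57 at 12 min, and 7.80, 7.74 and 7.85 at 20 min. In Control cultures it lay between 5.32 and 6.45 at these times. The groups overlapped at 3 min and were apart at 6, 12 and 20 min, when the response was 2.84 (SE 0.30, adjusted p = 1.16e-14), 3.56 (SE 0.30, adjusted p = 4.62e-21, an 11.8-fold difference) and 1.92 (SE 0.30, adjusted p = 2.69e-08).

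STR3 (YGL184C, chromosome VII) encodes cystathionine beta-lyase, which makes homocysteine from cystathionine on the route that leads from cysteine back to methionine. Its level in CHP cultures was 7.84, 8.35 and 8.51 at 3 min, 10.13, 10.07 and 10.11 at 6 min, 10.64, 10.54 and 10.59 at 12 min, and 8.02, 7.86 and 8.30 at 20 min. Control cultures stayed between 7.16 and 7.46 from 3 min on. Every CHP culture was above every Control culture from 3 min, and the CHP cultures lay close together at 6 and 12 min. The response was 2.79 at 6 min (SE 0.37, adjusted p = 5.84e-10) and 3.35 at 12 min (SE 0.37, adjusted p = 6.28e-14, a 10.2-fold difference). At 20 min it was 0.77 and did not pass the test.

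STR2 (YJR130C, chromosome X) encodes cystathionine gamma-synthase, which works one step before STR3, and it kept its level at 20 min. At 12 min it stood at 7.81, 7.60 and 7.89 in CHP cultures, against 6.82, 6.46 and 6.91 in Control cultures. At 20 min it stood at 7.76, 7.53 and 7.84, against 6.87, 6.76 and 6.44. Its groups were apart at both times, with responses of 1.04 (SE 0.20, adjusted p = 9.88e-06) and 1.02 (SE 0.20, adjusted p = 9.89e-06). CYS3, for cystathionine gamma-lyase, which releases cysteine in the opposite direction, rose by 0.51 and 0.55 at 12 and 20 min (adjusted p = 0.0125 and 0.00467). CYS4, the first enzyme of that direction, had responses of 0.10 and 0.06 and did not pass. At 12 min 3 of the 4 transsulfuration genes had thus risen with all cultures kept. Without WT CHP culture 1 only 5 of the 36 genes were higher at 12 min, MET1 and MET22 among them. The 12 min calls of CYS3 here and of MUP3, MET13 and MET30 below are to be read with that limit.

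Of the 5 transporters of organic sulfur compounds, YCT1, MUP3 and MMP1 had risen at 12 min. MUP3 (YHL036W, chromosome VIII), a low-affinity methionine permease, stood at 9.32, 9.20 and 9.09 in CHP cultures at 6 min, against 7.94, 8.29 and 8.01 in Control cultures. At 12 min it stood at 9.19, 8.50 and 9.02, against 8.08, 8.12 and 7.70. Its response was 1.12 at 6 min (SE 0.30, adjusted p = 0.0052), 0.94 at 12 min (adjusted p = 0.0106) and -0.11 at 20 min, where it did not pass. MMP1 (YLL061W, chromosome XII), the S-methylmethionine permease, stood at 10.23, 9.18 and 9.22 in CHP cultures at 12 min, against 8.62, 8.72 and 7.96 in Control cultures. The groups did not overlap, but CHP culture 1 stood about 1 unit above the other CHP cultures. The response was 1.11 (SE 0.32, adjusted p = 0.00334), and without that culture it was 0.77 and did not pass. The high-affinity methionine permease MUP1 and the S-adenosylmethionine permease SAM3 did not pass at any time in WT. At 12 min in WT the dimmest probe set of SAM3 (mean 5.27) had a difference of -0.52. The one used had 0.31, and the others had 0.26, 0.36 and 0.33.

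MHT1 (YLL062C, chromosome XII) encodes the methyltransferase that uses S-methylmethionine to turn homocysteine into methionine, and its locus is next to that of MMP1. It stood at 9.23, 8.13 and 8.48 in CHP cultures at 12 min, against 7.63, 7.52 and 7.04 in Control cultures. The groups were apart, with the same CHP culture highest as for MMP1. The response was 1.22 (SE 0.34, adjusted p = 0.00308), and 0.91 without WT CHP culture 1, where it did not pass. The other 4 genes of the methyl cycle, SAM1 and SAM2 for S-adenosylmethionine synthetase, SAH1 for S-adenosylhomocysteine hydrolase and SAM4 for the second homocysteine methyltransferase, did not pass at any time in WT. Their responses at 12 min were -0.18, -0.01, -0.27 and 0.21.

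On the route from sulfate to sulfide, 5 of 8 genes had risen at 12 min and 0 at 20 min. The largest response was that of MET1 (YKR069W, chromosome XI), which makes siroheme, the cofactor of sulfite reductase. It stood at 11.40, 10.59 and 11.09 in CHP cultures at 12 min, against 8.69, 9.63 and 9.13 in Control cultures. The response was 1.88 (SE 0.37, adjusted p = 1.22e-05, a 3.68-fold difference). At 20 min the levels were 9.17, 9.15 and 9.35 in CHP cultures, against 9.59, 9.64 and 9.35 in Control cultures. The CHP cultures were then level with or below the Control cultures, and the response of -0.30 did not pass. MET8, the second siroheme gene, rose by 0.89 (adjusted p = 0.00947). MET16, for the thioredoxin-dependent reductase that forms sulfite, rose by 0.66 (adjusted p = 0.019), and MET5, for a subunit of sulfite reductase, by 0.44 (adjusted p = 0.0496). MET22, for the nucleotidase that clears the by-product of the Met16 step, rose by 0.67 (adjusted p = 0.00113). Of these 5, MET1 and MET22 still passed without WT CHP culture 1.

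The first 2 enzymes of the route behaved differently. MET3, for ATP sulfurylase, did not pass at any time in WT, with responses of 0.46 at 12 min and 0.37 at 20 min. MET14, for the kinase that follows it, fell by 0.67 at 20 min (adjusted p = 0.0397), and this call was lost when any of 5 of the 6 WT cultures was left out. Sulfate permease genes also parted. SUL1 rose by 0.98 at 12 min (adjusted p = 0.00441), whereas SUL2 fell by 0.89 at 20 min (adjusted p = 0.00551). Without WT CHP culture 1 the response of SUL1 at 12 min was 0.78 (adjusted p = 0.0587).

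Enzymes that join sulfide to homoserine and methylate homocysteine moved little in WT. MET17, for the enzyme that incorporates sulfide, MET2, for the enzyme that activates homoserine, and MET6, for methionine synthase, did not pass at any time, with 12 min responses of -0.02, -0.02 and -0.15. Among the folate enzymes that serve MET6, MET13 rose by 0.40 at 12 min (adjusted p = 0.0342), MET12 did not pass, and MET7 fell by 0.44 at 12 min (adjusted p = 0.00448) and 0.38 at 20 min (adjusted p = 0.0145). In this group of 6, therefore, 1 gene rose and 1 fell at 12 min.

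Among the 6 regulators, MET28 and MET30 rose and CBF1 fell in WT. MET28 (YIR017C, chromosome IX), for a bZIP partner of Met4, stood at 9.83, 9.18 and 9.34 in CHP cultures at 6 min, against 8.47, 8.35 and 8.08 in Control cultures. Its groups were apart and its response was 1.15 (SE 0.29, adjusted p = 0.0027). At 12 min it was 0.44 and did not pass, and it did not pass at 20 min either. MET30 (YIL046W, chromosome IX), which acts against Met4, rose by 0.44 at 12 min (adjusted p = 0.0377). CBF1, for the DNA-binding partner that also binds centromeres, fell by 0.56 at 12 min (adjusted p = 0.000427). MET4 itself and the DNA-binding partners MET31 and MET32 did not pass in WT, and the probe set of MET31 was dim, above 8.7% of genes on the array.

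**Figure D2:**
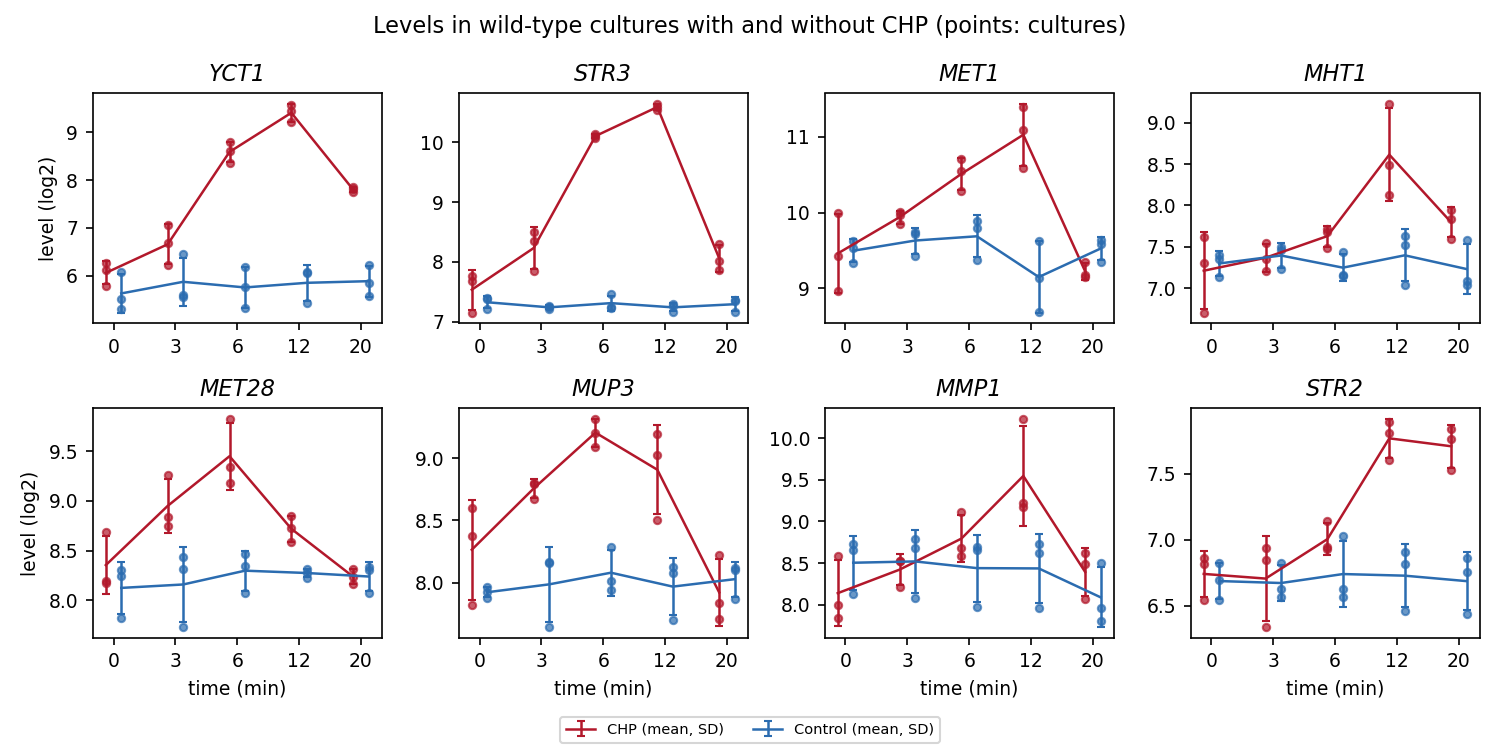
Log2 levels of 8 genes in WT cultures at 0, 3, 6, 12 and 20 min (times equally spaced on the axis), with points for single cultures and lines and bars for the mean and SD of 3 CHP or 3 Control cultures. YCT1, STR3 and MET1 were highest at 12 min in CHP cultures, MET28 and MUP3 at 6 min, and STR2 stayed high at 20 min.

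The time of the largest response was read for the genes that rose in WT at some time. Of these 16 genes, 2 had their largest response at 6 min (MUP3 and MET28), 13 at 12 min and 1 at 20 min (CYS3). Of the 15 that were higher at 12 min, 3 were still called higher at 20 min (STR2, CYS3 and YCT1). Neither the times of the largest response nor this share were counted over all genes. The 16 genes were picked by calls in these same responses, 15 of them at 12 min. Their times of largest response thus describe the picked genes and are no test of timing. The fall between 12 and 20 min was also tested directly, as the response at 20 min minus that at 12 min. It was negative and passed for SUL2 (-1.34), MET1 (-2.18), STR3 (-2.58) and YCT1 (-1.64), with adjusted p from 0.000714 to 0.0402, and positive for CBF1 (0.67), against 1.08% of all genes falling and 0.972% rising. With any 1 culture left out 2 to 3 of these 5 changes passed. The 5 samples of a culture are repeats of it, and with the culture as a random block (correlation 0.264) MET16 (-1.01) and MET13 (-0.68) also passed. Between 3 and 6 min only YCT1 passed among the 36 genes, rising by 2.05 (adjusted p = 0.000695), where 1.03% of all genes rose.

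The plot of shares by genotype shows genes called higher at 12 min in every genotype. At 3 min 2 genes were higher in glr1 (1.11% of all genes), 0 in grx1 (0.99%, limma, with 4 genes at an unadjusted p below 0.05), 4 in grx2 (1.33%), 1 in gpx1 (1.04%) and 2 in gpx2 (1.08%). At 6 min 16 were higher in glr1 (10.8%), 5 in grx1 (4.12%), 10 in grx2 (6.15%), 8 in gpx1 (4.42%) and 8 in gpx2 (3.77%). These early counts moved by over 1.5 times when 1 culture was left out. At 6 min 9 genes were called in glr1 without CHP culture 3, 3 in grx1 without any 1 of the Control cultures, 4 in grx2 without Control culture 1 and 16 without Control culture 2. In gpx1 4 or 5 were called without Control culture 1 or 2 or CHP culture 1 or 2, and in gpx2 5 without Control culture 1 or 2 or CHP culture 3. At 3 min leaving out 1 culture gave 1 to 6 genes in glr1, 1 to 14 in grx2 and 0 to 1 in gpx2. At 12 min the counts were 21 in glr1 (19%), 17 in grx1 (12.2%), 19 in grx2 (16.7%), 17 in gpx1 (13.8%) and 17 in gpx2 (14.3%). At 20 min 20 were higher in glr1 (29.3%), 12 in grx1 (22.7%), 13 in grx2 (26.1%), 8 in gpx1 (22.8%) and 8 in gpx2 (24%), so that in both gpx mutants the share of the 36 genes was then close to that of all genes. Without gpx1 CHP culture 2, 3 were higher and 4 lower in gpx1 at 20 min, and without gpx2 Control culture 2, 5 were higher and 0 lower in gpx2. With all cultures kept, fewer genes were lower than higher at each of these times. At 6 min 2 were lower in glr1 (12.7% of all genes) and 0 in grx1 (2.19%), grx2 (4.7%), gpx1 (2.37%) and gpx2 (1.91%). At 12 min 1 was lower in glr1 (21.1%), 1 in grx1 (18.7%), 1 in grx2 (23.9%), 2 in gpx1 (17%) and 2 in gpx2 (17.9%), and at 20 min 3 in glr1 (26.7%), 1 in grx1 (26%), 5 in grx2 (39.3%), 6 in gpx1 (26.3%) and 2 in gpx2 (24.1%).

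Outside yap1 many of the genes called were the same in the different genotypes. The share of all genes called in all 6 genotypes, in none or never higher was not counted. STR3, MUP3, YCT1 and MET28 were higher at 6 min in WT and in each mutant but yap1. At 12 min 13 genes were higher in all 6 of these genotypes: SUL1, MET16, MET1, MET8, MET22, STR2, STR3, CYS3, MHT1, MUP3, MMP1, YCT1 and MET30. This list needs a call in WT, where only 5 of the 36 genes were higher at 12 min without WT CHP culture 1. With the difference between the arms at 0 min subtracted, 6 were higher in WT at that time. At 12 min 10 genes were called in none of these 6 genotypes, namely MET14, MET6, MET12, CYS4, SAM1, SAM2, SAH1, SAM4, SAM3 and MET4. The 12 min response of STR3 ranged between 3.35 in WT and 3.85 in grx2, and that of YCT1 between 3.26 in grx2 and 4.08 in grx1. MET7 fell at 12 min in each of the 6 genotypes, by 0.36 to 0.46. Over all 7 genotypes and 4 times after CHP, 6 genes were never called higher: MET14, MET7, SAM2, SAH1, SAM3 and MET31. Each mutant was set against the same 6 WT cultures, so the differences below share them.

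In yap1 cells YCT1, STR3, MUP3 and MET28 responded less than in WT at 6 min, and more of the 36 genes were called higher at 12 and 20 min than at 6 min. At 6 min 0 of the 36 genes were higher in limma, against 6.58% of all genes, and 3 were lower, against 7.58% (SUL2, MET2 and MUP3, with responses of -0.82, -0.91 and -1.99). At an unadjusted p below 0.05 there were 12 genes in the 2 directions together. The count of 0 higher was not stable: without yap1 Control culture 2, 6 were higher and 4 lower, and without yap1 CHP culture 1, 2 were higher and 5 lower. With a replicate block 4 were higher and 5 lower, and at this time the 3 same-numbered pairs of yap1 cultures correlated at 0.227, 0.335 and 0.117. At 12 min 8 were higher and 2 lower, against 13.3% and 16% of all genes. At 20 min 11 were higher and 2 lower, against 18.2% and 26.3%, and 7 were higher and 1 lower without yap1 Control culture 3 or without yap1 CHP culture 3. At 3 min limma called 0, with 0 at an unadjusted p below 0.05, against 0.371% of all genes higher and 0.124% lower. Of the 12 genes higher at some time in yap1, 4 had their largest response at 12 min and 8 at 20 min, against 13 and 1 of 16 in WT. The same shares over all genes were not counted, so whether this timing is particular to the 36 genes was not tested. Both sets were picked by calls in these same responses, so the contrast of these times is a description and not a test.

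YCT1 stood at 6.05, 5.71 and 5.78 in yap1 CHP cultures at 6 min, against 6.24, 5.81 and 6.58 in yap1 Control cultures. At 12 min it stood at 7.44, 7.44 and 7.10, against 5.82, 5.81 and 6.61, and at 20 min at 8.92, 8.17 and 8.66, against 6.33, 6.15 and 6.31. The groups overlapped at 6 min and were apart at 12 and 20 min, with the highest CHP levels at 20 min. Its yap1 response was smaller than that of WT by 3.20 at 6 min (difference -3.20, SE 0.42, adjusted p = 8.12e-10) and by 2.31 at 12 min (difference -2.31, SE 0.42, adjusted p = 5.29e-06). At 20 min the responses were 2.32 in yap1 and 1.92 in WT, and their difference did not pass.

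STR3 moved in the same order. In yap1 it stood at 7.26, 7.08 and 7.01 in CHP cultures at 6 min, against 7.33, 7.21 and 7.98 in Control cultures. At 12 min it stood at 10.05, 10.29 and 10.07, against 7.31, 7.42 and 7.69, and at 20 min at 10.40, 10.33 and 10.83, against 7.70, 7.63 and 7.20. CHP cultures were thus no higher than Control cultures at 6 min and well above them at 12 and 20 min. The response was smaller than in WT at 6 min (difference -3.18, SE 0.53, adjusted p = 1.42e-06) and larger at 20 min (difference 2.24, SE 0.53, adjusted p = 0.000495). Between 6 and 12 min its response grew by 3.05 in yap1.

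MUP3 fell before it rose. It stood at 5.70, 5.81 and 5.97 in yap1 CHP cultures at 6 min, against 7.63, 7.82 and 8.00 in yap1 Control cultures. The groups were far apart, with a response of -1.99 (SE 0.30, adjusted p = 1.08e-07, 0.252 times the Control level). At 12 min it stood at 8.36, 8.65 and 8.12, against 8.00, 7.90 and 8.46, where the groups overlapped, and at 20 min at 8.61, 8.44 and 8.69, against 8.16, 7.77 and 7.47. The difference of the yap1 response and that of WT at 6 min was -3.12 (SE 0.43, adjusted p = 2.94e-09). In yap1 the response of MUP3 changed by -1.61 between 3 and 6 min and by 2.25 between 6 and 12 min, and both changes passed (0.212% of all genes fell in the first step and 4% rose in the second). MET28 also responded less than in WT at 6 min (difference -1.82, SE 0.41, adjusted p = 0.00108) and had risen by 1.13 at 12 min.

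The S-methylmethionine genes showed no such late rise. MHT1 stood at 6.88, 6.88 and 6.67 in yap1 CHP cultures at 12 min, against 7.64, 7.32 and 7.70 in Control cultures, and at 6.60, 6.66 and 6.50 at 20 min, against 7.29, 7.57 and 7.16. CHP cultures were below Control cultures at both times, but the responses of -0.74 and -0.75 did not pass. MMP1 stood at 7.63, 7.80 and 7.38 in yap1 CHP cultures at 12 min, against 8.40, 8.26 and 8.30 in Control cultures, and at 6.74, 6.93 and 6.75 at 20 min, against 8.39, 8.69 and 7.65. It fell by 1.44 at 20 min (adjusted p = 6.08e-05, 0.369 times the Control level). Differences of the yap1 responses and those of WT were -1.96 for MHT1 (adjusted p = 0.00106) and -1.82 for MMP1 (adjusted p = 0.000911) at 12 min. At 20 min they were -1.32 (adjusted p = 0.0364) and -1.74 (adjusted p = 0.00146), and the first of these was lost when any of 9 of the 12 cultures was left out.

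Sulfate assimilation genes split in yap1. At 12 min MET3 and MET5 fell by 0.65 and 0.53 and MET16 rose by 0.65. The responses differed from those of WT for MET3 (-1.11), MET5 (-0.97), MET10, for the other sulfite reductase subunit (-0.93), and MET1 (-1.68, adjusted p = 0.0109), of which MET10 and MET1 were lost without WT Control culture 3 and 1. At 20 min MET16 and MET22 had risen by 0.89 and 0.88, and the difference from WT passed for MET16 (1.24, adjusted p = 0.00168). STR2 rose by 1.66 at 12 min and 1.59 at 20 min. Among the regulators MET4 rose by 1.09 at 12 min, where its difference from WT was 1.02 (adjusted p = 0.0253) and was lost when any of 4 cultures was left out, and MET30 by 0.76 at 12 min and 1.06 at 20 min. The difference for MET30 at 20 min was 0.86 (adjusted p = 0.00337). In total, yap1 and WT responses differed for 5 genes at 6 min (1 higher, 4 lower), 8 at 12 min (1 higher, 7 lower) and 7 at 20 min (5 higher, 2 lower). Of all genes 4.49% and 3.8%, 13.1% and 9.39%, and 11.5% and 11.7% were higher and lower at these times.

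**Figure D3:**
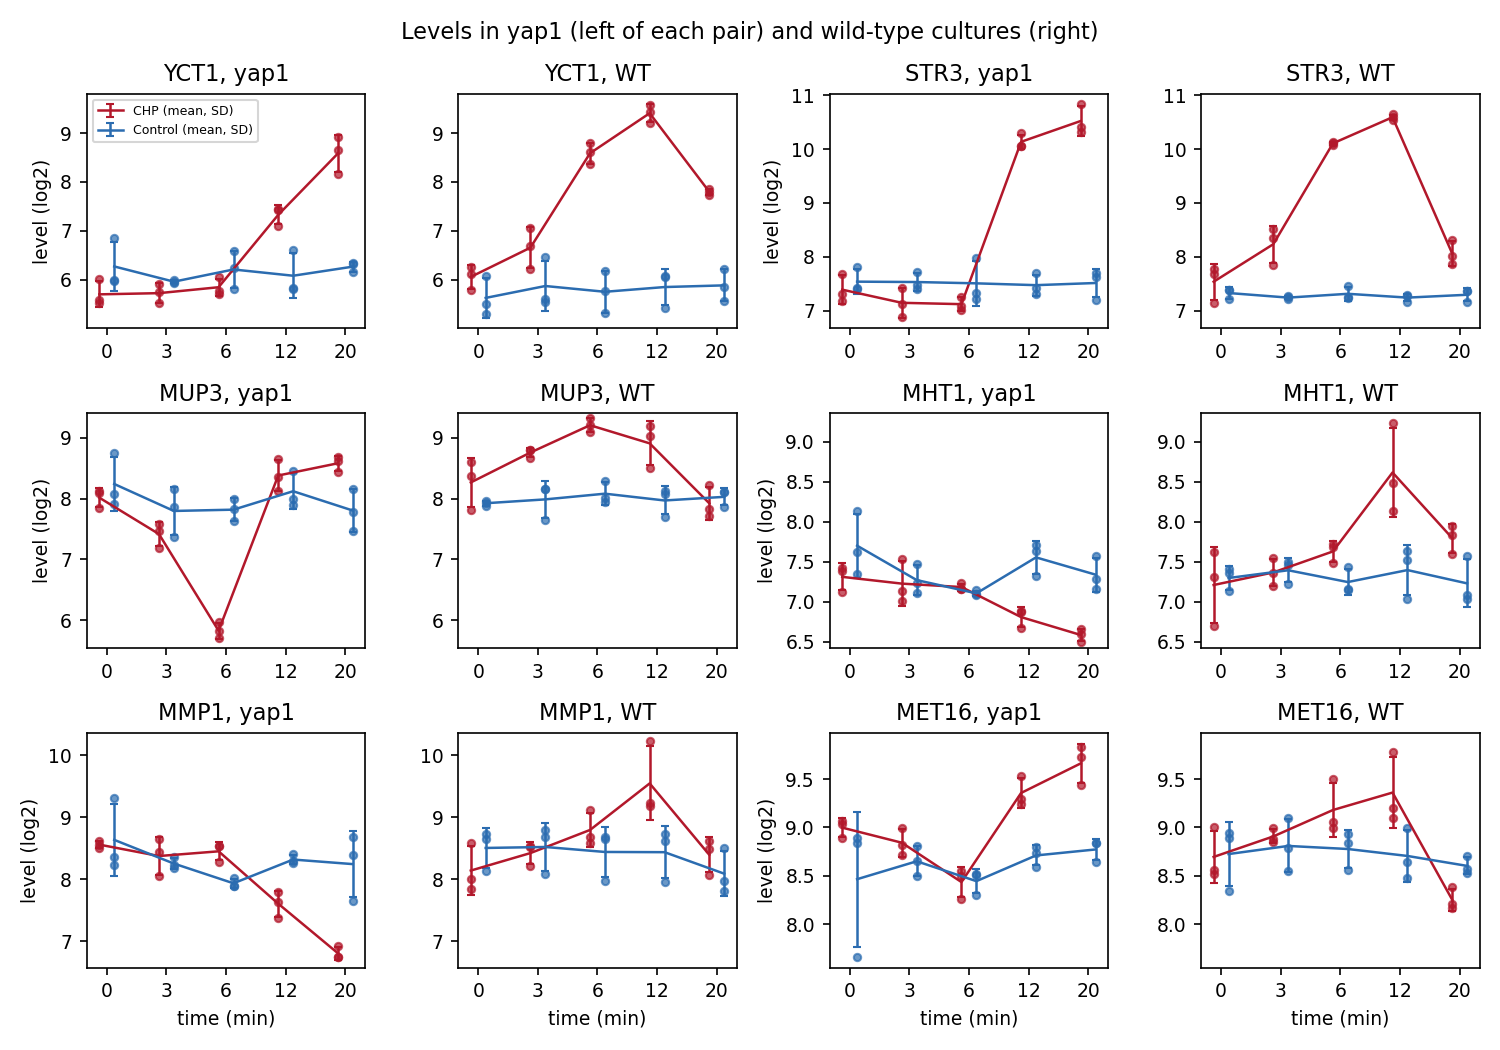
Log2 levels of 6 genes in yap1 (left of each pair) and WT (right) at 0, 3, 6, 12 and 20 min (times equally spaced), with points for single cultures and lines and bars for the mean and SD of 3 CHP or 3 Control cultures. In yap1 STR3 and YCT1 rose at 12 and 20 min, MUP3 dipped at 6 min, and MMP1 was lower in CHP cultures at 20 min.

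One yap1 array bears on these values. At 0 min 4 genes already differed between the yap1 arms: MET22, MET7 and SAM4 were higher in CHP cultures, each by 0.53, and SAM3 was lower by 0.72, where 4.86% of all genes were higher and 1.45% lower. Control culture 1 at 0 min stood apart from the other 5 cultures for 12 of the 36 genes, and without that array 0 of the 36 genes differed in limma. With each gene's difference at 0 min subtracted, the yap1 responses of SAM4 and SAM3 and the 6 min difference of MET7 changed sign, and the 6 min differences of YCT1 (-2.20), STR3 (-2.82) and MUP3 (-2.55) kept theirs and passed. At 12 min the differences of MET10 and MMP1 then passed and the other 6 did not, YCT1 among them. At 20 min those of STR3 and MMP1 passed and the other 5 did not, and 6 yap1 responses passed in place of 13.

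In glr1 the mean level of the 36 genes in CHP cultures had come down by 20 min, while many were still called higher than in Control cultures. In CHP cultures 1, 2 and 3 this mean was 9.67, 9.74 and 10.15 at 12 min and 9.11, 9.10 and 9.44 at 20 min. In Control cultures 1, 2 and 3 it was 8.95, 8.85 and 8.22 at 20 min. Of the 21 genes higher at 12 min, 15 were higher at 20 min as well, and the same share over all genes was not counted. At both times more of all genes were called higher in glr1 than in WT. Both genes whose response differed from that of WT at 12 min were regulators. MET30 stood at 7.72, 8.15 and 8.63 in glr1 CHP cultures at 12 min, against 6.79, 6.37 and 6.58 in glr1 Control cultures. In WT it stood at 7.33, 6.99 and 7.46 in CHP cultures, against 6.73, 6.93 and 6.81 in Control cultures. All CHP cultures were above the Control cultures in both genotypes, and the response was larger in glr1 by 1.15 (SE 0.24, adjusted p = 0.00128). The other difference at 12 min was that of CBF1 (0.84, SE 0.19, adjusted p = 0.00433), whose responses were 0.29 in glr1 and -0.56 in WT, and it was lost without WT Control culture 1 or without WT CHP culture 2. Of all genes 0.619% were higher and 0.0354% lower in this comparison.

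At 20 min 5 genes responded more in glr1 than in WT and 1 responded less, against 3.04% and 2.03% of all genes. MET2 showed the largest difference (1.37, SE 0.33, adjusted p = 0.00436). It stood at 10.35, 10.18 and 10.29 in glr1 CHP cultures, against 10.26, 9.98 and 7.43 in glr1 Control cultures. In WT it stood at 9.56, 10.24 and 10.32 in CHP cultures, against 10.41, 10.34 and 10.35 in Control cultures. The difference thus came with 1 low value, that of glr1 Control culture 3, and without this array it was 0.48 and did not pass. MUP1 had the same form, at 10.30, 11.15 and 11.36 in glr1 CHP cultures, against 10.42, 9.83 and 8.63 in glr1 Control cultures. In WT it stood at 10.68, 10.71 and 10.97 in CHP cultures, against 10.84, 10.93 and 10.69 in Control cultures. Its difference of 1.34 (SE 0.33, adjusted p = 0.00709) was 0.85 without the array and did not pass.

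The same array moved other genes of the group. STR2 stood at 9.06 in it, against 6.61 and 6.36 in the other glr1 Control cultures at 20 min. Without it STR2 rose in glr1 by 1.13, and SUL2 fell by 0.70 where it had been 0.06. The differences for MET3 (0.89), MET5 (0.86) and MET17 (0.72) did not pass without it either, and that of SAM4 (-0.82, adjusted p = 0.00968 with the array) did. In all, 2 genes then differed (1 higher, 1 lower), the higher one being MET10. The fall of the glr1 response between 12 and 20 min then passed for 11 genes, where 6 had fallen and 1 had risen with it, against 4.99% of all genes falling with the array. Between 0 and 20 min the glr1 Control cultures themselves fell for MET14, MET5, MET17, MET2, SAM1 and MUP1, by 0.40 to 1.13, where 3.02% of all genes fell, and in the Control cultures of the other 6 genotypes 0 of the 36 genes passed in limma, with 0 to 14 at an unadjusted p below 0.05. Of all genes 0% passed there in WT, gpx1 and grx1, 0.0177% in gpx2, 1.26% in grx2 and 3.87% in yap1.

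Without that array 16 genes were called higher in glr1 at 20 min and 2 lower, where 20 and 3 had been with it. Of the 16, 15 were among the 20 and STR2 was not, and of the 2 lower genes 1 was among the 3 and SUL2 was not. SUL1 (1.40), MET3 (1.26), CYS3 (1.06) and YCT1 (2.63) were among the 20. The smaller set of calls in WT at that time is not itself a test of a difference, which passed for the genes named above. With the difference between the arms at 0 min subtracted, 0 of the glr1 differences from WT passed at 12 or 20 min.

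In grx2 cultures 5 of the 36 genes had a larger response than in WT at 20 min and 0 had a smaller one. For larger responses this share was not far from that of all genes. Limma called 0 of the 36 differences from WT at 3, 6 and 12 min, with 5, 1 and 3 at an unadjusted p below 0.05, where 0%, 0.141% and 0.265% of all genes were called. At 20 min SUL1 (1.22), MET1 (1.82), STR3 (2.03), MHT1 (1.47) and YCT1 (1.37) had larger responses in grx2 than in WT, against 9.78% of all genes higher and 18.2% lower. STR3 stood at 10.63, 8.52 and 8.92 in grx2 CHP cultures at 20 min, against 6.91, 5.45 and 7.31 in grx2 Control cultures. The groups were apart, and the difference from WT (SE 0.53, adjusted p = 0.00197) passed whichever culture was left out. MET1 stood at 10.68, 12.43 and 9.33 in CHP cultures, against 9.79, 8.32 and 9.77 in Control cultures, and these groups overlapped. MHT1 stood at 8.99, 11.34 and 8.49, against 7.96, 7.29 and 7.45, with CHP culture 2 far above the rest.

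The value of 12.43 for MET1 and that of 11.34 for MHT1 come from the array that stood apart. Without it their differences were 1.01 and 0.60 and did not pass, and the differences for STR2 (0.87) and MUP3 (1.28) passed instead. The difference for YCT1 was lost without grx2 CHP culture 1, at 1.00, and that for SUL1 without grx2 Control culture 2, at 0.93. The fall between 12 and 20 min passed in grx2 for MET16, MET13, SAH1 and MET32 and the response grew for MET4, against 17.9% and 9.79% of all genes, and without the array 0 of these 5 passed in limma. In grx2 4 genes were higher at 3 min (SUL1, STR3, MUP3 and YCT1), and this count was between 1 and 14 with 1 culture left out.

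The grx2 cultures were also uneven before CHP. At 0 min STR3 stood at 6.29, 7.03 and 6.07 in the cultures that later received CHP, against 4.76, 6.65 and 6.07 in those that did not. SUL1 stood at 7.68, 9.60 and 9.49, against 8.78, 7.13 and 9.33. The SD over the 6 cultures of a genotype at 0 min was 0.5 or more for 11 of the 36 genes in grx2, where 3.82% of all genes had such an SD. In yap1 6 of the 36 genes had it (8.4% of all genes) and in glr1 1 (1.7%). In gpx1, gpx2, grx1 and WT 0 had it, where 0.27%, 1.86%, 0.19% and 1.2% of all genes did. The part of this spread in the 20 min differences was not tested beyond the cultures left out above and the subtraction of each gene's difference at 0 min, after which 0 of the 36 differences from WT passed.

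**Figure D4:**
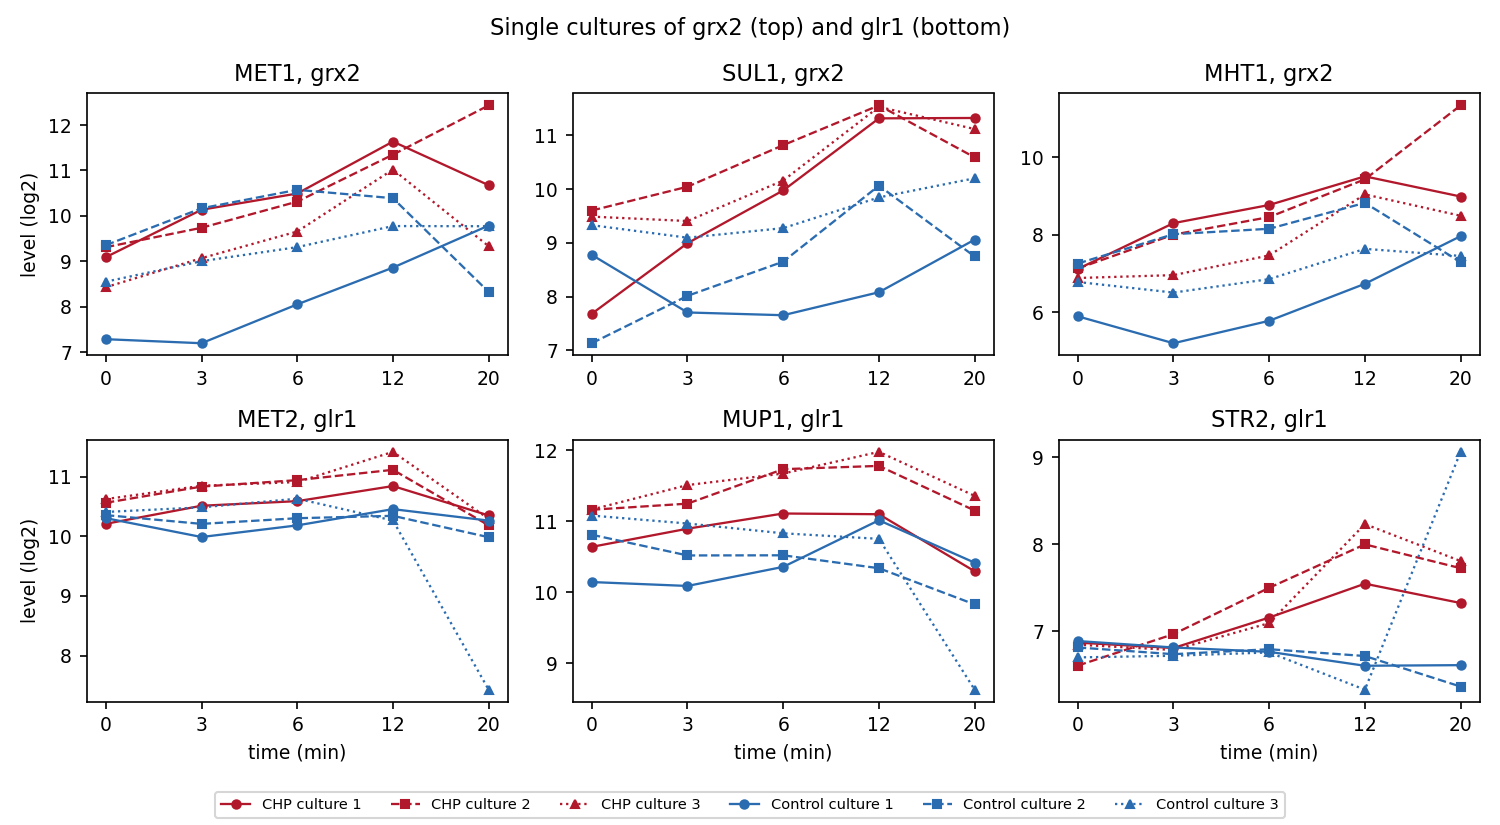
Log2 levels in single cultures of grx2 (MET1, SUL1 and MHT1, top) and glr1 (MET2, MUP1 and STR2, bottom) at 0, 3, 6, 12 and 20 min (times equally spaced), red for CHP and blue for Control, 1 line per culture. CHP culture 2 of grx2 is highest for MET1 and MHT1 at 20 min, and Control culture 3 of glr1 leaves the other Control cultures at 20 min only.

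In grx1 YCT1 alone of the 36 genes differed from WT, at 20 min, against 0.424% of all genes higher and 0.336% lower. It stood at 8.98, 8.94 and 8.67 in grx1 CHP cultures, against 5.60, 5.23 and 4.99 in grx1 Control cultures, and in WT at 7.80, 7.74 and 7.85, against 5.86, 5.57 and 6.22. The CHP cultures of grx1 were all above those of WT, and the Control cultures of the 2 genotypes overlapped. The difference was 1.67 (SE 0.42, adjusted p = 0.0286) and was lost when any of 8 of the 12 cultures was left out, and when the difference at 0 min was subtracted. STR3 had a difference of 1.67 at that time too (95% interval 0.63 to 2.72, adjusted p = 0.121) and did not pass. Of the 17 genes higher in grx1 at 12 min, 11 were still higher at 20 min, where WT kept 3 of 15. These counts of calls do not test a difference between the genotypes, and the same shares over all genes were not counted.

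In gpx1 and gpx2 limma called 0 of the 36 differences from WT at any time, with 0 to 2 at an unadjusted p below 0.05, where 0%, 0%, 0% and 0.177% of all genes were called in gpx1 and 0.0177%, 0.0354%, 0.0884% and 0.283% in gpx2 at 3, 6, 12 and 20 min. This does not show equal responses. The 95% interval of the difference at 12 min was -1.03 to 1.06 for STR3 and -0.63 to 1.06 for YCT1 in gpx1, and -0.87 to 1.22 and -0.77 to 0.91 in gpx2. At 20 min that for YCT1 was -0.12 to 1.56 in gpx1 and -0.05 to 1.63 in gpx2. The fall between 12 and 20 min passed for SUL2, MET16, MET1, MET13, STR3 and MET32 in gpx1 (3.73% of all genes falling), for MET16 and STR3 in gpx2 (2.55%) and for MET16 in grx1 (3.57%). The grx1 call was lost whichever of the 6 cultures was left out, and leaving out 1 culture left 0 or 1 gene in gpx2 and 2 to 5 in gpx1. With the culture as a random block 11 genes passed in glr1, 11 in grx2, 2 in grx1, 10 in gpx1 and 6 in gpx2, where 7, 5, 1, 6 and 2 had passed without it. In yap1 0 of the 36 genes passed in this step in limma (2.37% of all genes falling), with 4 at an unadjusted p below 0.05, and with the block YCT1 passed, growing by 1.07.

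Before CHP several mutants already had other levels of these genes than WT (6 cultures each). In gpx1 10 genes were higher and 0 lower, against 16.4% and 12.6% of all genes. In grx1 8 were higher and 1 lower, against 12.2% and 9.34%, and in gpx2 6 were higher and 0 lower, against 6.31% and 11.3%. The gpx2 genes were MET14, MET10, MET6, SAM1, SAM2 and SAH1, all of which were higher in gpx1 and grx1 as well. MET14 stood between 11.26 and 11.65 in gpx1, between 11.39 and 11.59 in grx1 and between 10.37 and 11.29 in WT. The differences were 0.68 and 0.71 and the WT cultures were the more spread. MET6 was higher than in WT by 0.63 in grx1, 0.42 in grx2, 0.56 in gpx1 and 0.55 in gpx2. After quantile normalization 5 genes were called in gpx1 and 2 in gpx2. Without WT Control culture 3, 6 were called in gpx1 and 2 in gpx2, and without WT CHP culture 3, 3 were called in gpx2. With a replicate block 5 were higher in grx1, and 1 was higher and 1 lower in gpx2.

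In grx2 the direction before CHP depended on the gene. MET6, CYS4, SAM1, SAM2 and SAH1 were higher than in WT, by 0.29 to 0.50, and SUL1 (-1.36), SUL2 (-0.70), MET1 (-0.81), STR3 (-1.28), SAM3 (-0.42), YCT1 (-0.68) and MET28 (-0.57) were lower, against 16.8% and 12.3% of all genes. SUL1 stood between 7.13 and 9.60 in grx2 and between 9.72 and 10.36 in WT, and STR3 between 4.76 and 7.03 in grx2 and between 7.15 and 7.77 in WT. Neither gene's groups overlapped. Without grx2 CHP culture 1 and grx2 Control cultures 1 and 2, a set chosen after seeing the data, 3 genes were lower and 0 higher. Without WT Control culture 3, 6 were lower and 0 higher. In glr1 and yap1 limma called 0 of the 36 genes before CHP, with 0 and 6 at an unadjusted p below 0.05, where 0.0177% and 9.14% of all genes were higher and 0.053% and 3.08% lower. With a replicate block 6 genes were lower in glr1, and 1 was higher and 2 lower in yap1. Leaving out 1 culture gave up to 4 calls in yap1.

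Genes next to the pathway were read in the same way in WT. Beside the counts below, 10.7% of all genes were higher and 19.5% lower at 12 min, and 16.7% and 21.9% at 20 min, and in lists this short 1 gene is a large share. Of 3 genes for the thioredoxin electron donors, TRX2 and TRR1 had risen at every time after CHP, by 0.58, 1.08, 1.51 and 1.51 and by 0.71, 1.21, 1.66 and 1.76 at 3, 6, 12 and 20 min. Of the 2 genes of glutathione synthesis, GSH1 rose by 0.89, 1.67 and 1.23 at 6, 12 and 20 min, and GSH2 by 0.58 and 0.67 at 12 and 20 min. These genes were thus higher at 20 min, when most sulfur genes were no longer called. Of 8 genes for other sulfur sources, 4 had risen and 1 had fallen at 12 min. JLP1, for the enzyme that frees sulfite from sulfonates, rose by 2.34, BDS1, for a sulfatase, by 1.52, AGP3 by 2.07 and SEO1 by 1.41, whereas AGP1, an amino-acid permease gene, fell by 1.24. At 20 min JLP1 and BDS1 were still higher, by 2.41 and 1.22.

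Methyl-group and carbon supply moved otherwise. Of the 5 one-carbon genes, 0 had risen and 3 had fallen at 20 min in WT, and MTD1, for a folate dehydrogenase, had fallen by 0.76, 1.37 and 1.31 at 6, 12 and 20 min. Of the 3 genes for homoserine supply, HOM2 and HOM3 had risen at 12 min by 0.42 and 0.54. Of the 9 genes of methionine salvage and polyamines 1 had risen and 1 fallen at 12 min, and 3 and 2 at 20 min. MXR1, for a methionine sulfoxide reductase, rose by 0.61 and 0.67 at 12 and 20 min. Of the 2 genes for sulfite efflux, the pump gene SSU1 fell by 0.84 at 20 min and its activator gene FZF1 rose by 0.56. Of the 4 partners of Met30 in the ubiquitin ligase, 1 had risen at 20 min, HRT1 by 0.33.

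In yap1 the neighbouring genes are set beside 6.58% of all genes higher and 7.58% lower at 6 min, 13.3% and 16% at 12 min, and 18.2% and 26.3% at 20 min. Of the 5 genes for thioredoxin donors and glutathione synthesis, 0 were called at 6, 12 or 20 min in yap1 in limma. At 12 min the yap1 response was smaller than that of WT for TRR1 (-1.69, adjusted p = 1.74e-18), TRX2 (-1.50, adjusted p = 3.09e-11), GSH1 (-2.04, adjusted p = 2.54e-10) and JLP1 (-2.03, adjusted p = 1.23e-07). The homoserine genes went the other way, with HOM3 up by 0.88, 1.06 and 1.42 and HOM2 by 0.58, 0.46 and 1.03 at 6, 12 and 20 min in yap1, and the difference from WT for HOM3 at 20 min was 1.58 (adjusted p = 1.26e-05). In yap1 JLP1 and BDS1 rose by 1.27 each at 20 min, later than in WT, as YCT1 and STR3 did. SSU1 rose by 1.01 and 0.75 at 12 and 20 min in yap1, and its difference from WT was 1.36 and 1.59 at these times. In glr1 SSU1 fell by 2.43 at 20 min, with a difference from WT of -1.59 (adjusted p = 5.85e-05).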

How the data were processed

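RNA was measured on Affymetrix Yeast Genome S98 arrays. The deposited log2 values were made by the authors with RMA, per the submitters' processing notes. RMA settings and version, and any joint processing of the 210 arrays, are not stated there. Of 9335 probe sets, 6504 name 1 gene. For each gene the probe set with the highest mean was kept, which left 5656 genes, and the probe set shared by SAM1 and SAM2 was left out. Array medians ran from 6.066 to 6.335, and the number of arrays per group limits the precision.

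Tests used limma (version 3.58.1, under R 4.3.3) on 70 group means of 3 cultures each, and p-values were adjusted over all genes (Benjamini-Hochberg, threshold 0.05). The response is CHP minus Control, and a difference between genotypes is the mutant's response minus that of WT. The replicate is the culture. Repeat samples of a culture entered as separate samples, and a random block for the culture was an alternative. Other alternatives were quantile normalization, median centring, a filter on dim genes, the mean of a gene's probe sets, other limma settings, fits to the compared genotypes alone, a block for the replicate number, subtraction of the 0 min difference and leaving out each culture. The pipeline was tested on simulated data.

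Members, gene lists and tests were chosen with earlier results of these data known. Genes are given in every sample by a rule: up to 10 members with the largest WT response past the threshold and of at least 1, and the 3 with the largest difference from WT past the threshold in each mutant. MHT1, MMP1, MET28 and CBF1 in yap1 or glr1, STR2 and SUL1 in single cultures and the levels at 0 min were added after their values were seen. Same-numbered cultures deviated together in 51 of 105 pairs of groups (correlation over 0.1, range -0.371 to 0.722), so the numbers were not taken to pair cultures. Sequences and coordinates are not used here.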

Additional observations from a re-analysis of the deposited data

Results flagged for a closer look

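Differences between a mutant's response and that of WT that passed the test (limma, adjusted over all genes) are listed here with their log2 values, and their limits stand in the report. In yap1 at 6 min they were 0.68 for MET7, -3.18 for STR3, -3.12 for MUP3, -3.20 for YCT1 and -1.82 for MET28. In yap1 at 12 min they were -1.11 for MET3, -0.97 for MET5, -0.93 for MET10, -1.68 for MET1, -1.96 for MHT1, -1.82 for MMP1, -2.31 for YCT1 and 1.02 for MET4. In yap1 at 20 min they were 1.24 for MET16, 0.67 for MET13, 2.24 for STR3, 0.70 for SAM1, -1.32 for MHT1, -1.74 for MMP1 and 0.86 for MET30. In glr1 they were 1.15 for MET30 and 0.84 for CBF1 at 12 min, and 0.89 for MET3, 0.86 for MET5, 0.72 for MET17, 1.37 for MET2, -0.82 for SAM4 and 1.34 for MUP1 at 20 min. In grx1 the difference was 1.67 for YCT1 at 20 min. In grx2 at 20 min they were 1.22 for SUL1, 1.82 for MET1, 2.03 for STR3, 1.47 for MHT1 and 1.37 for YCT1.

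Single cultures far from the other 5 of their genotype at 0 min were found for 21 of 252 sets of 6 values (36 genes in 7 genotypes), where chance gives about 1 in 20. Of these, 12 were in 1 array, that of yap1 Control culture 1. In that array MET3 (11.23), MET2 (11.0), CYS3 (12.4), MUP3 (8.74), MMP1 (9.3) and YCT1 (6.84) were the highest of 6. MET16 (7.66), MET10 (9.38), MET22 (8.15), MET7 (7.42), SAM4 (7.53) and MUP1 (9.77) were the lowest of 6 there. In grx2 Control culture 1 SUL2 (7.76), MET8 (6.44), MHT1 (5.89) and SAM3 (7.72) were the lowest. The others were CYS3 in glr1 CHP culture 2 (11.53, lowest), MET17 (12.05, lowest) and STR3 (7.93, highest) in gpx1 CHP culture 2, MET12 in gpx2 Control culture 3 (7.9, lowest) and MET30 in grx1 CHP culture 3 (7.19, highest).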

How the results depend on the processing

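The figures here are counts of the 36 genes past the threshold, both directions together. Over the alternatives that leave out no array or culture, 484 recomputed counts stayed within 1.5 times the reported one and 88 did not. Of single gene results, 181 of 321 did not pass and 4 turned their direction with the 0 min difference between the arms subtracted. In the other alternatives, 41 of 384 did not pass after quantile normalization, 17 after median centring, 6 with the culture as a random block, 14 with a block for the replicate number, 78 with only the compared genotypes fitted, 1 with probe sets averaged and 0 with limma's trend and robust settings. Dim genes left out changed 0 of 381. Precision is limited by 3 cultures per group.

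After quantile normalization the counts were 1 in gpx2 at 3 min, 0 for the grx1 difference at 20 min, 8 for the 12 to 20 min step in grx2, and 5 in gpx1 and 2 in gpx2 before CHP. After centring the step count in grx1 was 0. Centring moved the median response of all genes by over 0.1 at 20 min in glr1 (0.126, reported 0.011) and yap1 (0.002, reported -0.098), and by about 0.1 in grx2 (-0.040, reported -0.140).

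With the culture as a random block the counts were 1 in grx1 at 3 min and, for the step, 11 in glr1, 11 in grx2, 2 in grx1, 10 in gpx1, 6 in gpx2 and 1 in yap1. Same-numbered cultures correlated above 0.1 in 51 of 105 pairs of groups (median 0.083), so the numbers only name cultures. With a replicate block the counts were 1 and 8 in grx1 at 3 and 6 min, 9 in yap1 at 6 min, 3 and 10 for the glr1 difference at 6 and 20 min, 10 for the yap1 difference at 6 min, 5 and 8 for the step in gpx2 and grx2, and 6 in glr1, 2 in gpx2, 5 in grx1 and 3 in yap1 before CHP. MET6 in glr1 before CHP was -0.377 with this block, where the reported difference from WT was 0.015 (adjusted p = 0.982).

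With the 0 min difference subtracted, responses numbered 2, 6 and 2 in WT at 6, 12 and 20 min, and 0, 5, 12 and 13 in glr1, 0, 2, 8 and 6 in gpx1 and 0, 2, 11 and 5 in gpx2 at 3, 6, 12 and 20 min. They were 2 and 11 in grx1 at 6 and 12 min, 0, 2 and 7 in grx2 at 3, 6 and 12 min, and 1 and 6 in yap1 at 6 and 20 min. The differences from WT were 0 in glr1 at 12 and 20 min, 0 in grx1 and 0 in grx2 at 20 min, and 3, 2 and 2 in yap1 at 6, 12 and 20 min. SAM4 in yap1 turned to -0.082 at 12 min and -0.103 at 20 min, SAM3 to 0.152 at 20 min, and the MET7 difference at 6 min to -0.014. This estimate has more error by construction, and beyond that the cause was not tested.

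With only the compared genotypes fitted, responses numbered 3, 8 and 12 in WT at 3, 6 and 20 min, 1 and 11 in glr1 and 8 and 16 in gpx1 at 3 and 6 min, 5, 18 and 24 in gpx2 at 3, 6 and 20 min, 8, 18, 30 and 23 in grx1 at 3, 6, 12 and 20 min, 0, 3 and 10 in grx2 at 3, 6 and 12 min, and 5 in yap1 at 6 min. The steps numbered 3 in glr1, 0 in grx2, 10 in grx1, 17 in gpx1 and 18 in gpx2. Differences from WT numbered 1 and 1 in glr1 at 12 and 20 min, 1 in gpx2, 9 in grx1 and 1 in grx2 at 20 min, and 1, 8, 13 and 11 in yap1 at 3, 6, 12 and 20 min, and before CHP 7 in grx2 and 3 in yap1. The cause was not tested.

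Without the grx2 array that stood apart the step count in grx2 was 0. Alternatives chosen after seeing the data left out arrays or cultures of 3 kinds. Without the glr1 Control culture 3 array at 20 min the glr1 difference counted 2 and the step 11, and SUL2 (-0.696) and MET8 (-0.144) turned their direction in glr1. Without the yap1 Control culture 1 array at 0 min 0 genes differed between the yap1 arms, and without 3 grx2 cultures 3 genes differed from WT before CHP.

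Leaving out 1 culture at a time, and assuming that the remaining 2 of a group vary like the others, responses numbered 7 to 17 and 5 to 10 in WT at 12 and 20 min, 1 to 6 and 9 to 23 in glr1 at 3 and 6 min, 4 to 7 and 7 to 13 in gpx1 at 6 and 20 min, 0 to 1, 5 to 7 and 5 to 8 in gpx2 at 3, 6 and 20 min, 3 to 6 in grx1 at 6 min, 1 to 14, 4 to 16 and 13 to 24 in grx2 at 3, 6 and 12 min, and 2 to 10 and 8 to 11 in yap1 at 6 and 20 min. Differences from WT numbered 0 to 4, 1 to 2 and 2 to 10 in glr1 at 6, 12 and 20 min, 0 to 1 in grx1 at 20 min, 0 to 1 in grx2 at 3, 6 and 12 min each, 4 to 10 in grx2 at 20 min and 5 to 8 in yap1 at 6 min. Steps numbered 2 to 3 in WT, 4 to 8 in glr1, 0 to 13 in grx2, 0 in grx1, 2 to 5 in gpx1 and 0 to 1 in gpx2. Before CHP the counts were 6 to 12 in gpx1, 2 to 7 in gpx2, 6 to 15 in grx2 and 0 to 4 in yap1. In glr1 at 20 min MET8 ran from -0.144 without Control culture 3 up to 1.199, SUL2 turned its direction without the same culture, and the MET4 step in grx2 ran from -0.041 without CHP culture 2 up to 1.609.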
